A study of Mus musculus with 10 samples.

Results

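Dispersed hnRNP L peaks are the places on mouse chromosomes 1 to 19 and X where hnRNP L was called by chromatin immunoprecipitation and sequencing (ChIP-seq) outside its dense clusters. Members were chosen by the measured positions of the hnRNP L peaks alone. Peaks of a condition were linked into a chain when the gap between neighbours was at most 100 kb, and a peak was kept when its chain held fewer than 10 peaks. The untreated list gave 588 such peaks of 930 on these chromosomes and 1120 in all, and the Adriamycin list 505 of 832 and 1022 in all. All libraries came from R1E cells, an embryonic stem cell line of the mouse, of mixed C57BL/6X129Sv background and at less than 20 passages, kept with leukemia inhibitory factor. They were untreated or had received 0.5 uM Adriamycin for 8 h, with no genetic change named for either group. Adriamycin (doxorubicin) is a topoisomerase II poison that breaks DNA. Besides hnRNP L, the study profiled RNA polymerase II (Pol II), H3K27me3, H3K4me3 and H3K79me2, with 1 library per target and condition, so no difference between the conditions has a replicate check.

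hnRNP L is an RNA-binding protein that recognises CA-rich RNA and regulates splicing and RNA stability. It can be recovered with chromatin by crosslinking, either through nascent RNA or through its protein partners. Pol II marks engaged transcription, H3K4me3 lies at active and poised promoters, H3K79me2 lies over the 5' part of transcribed genes, and H3K27me3 is laid down by the Polycomb repressive complex at silent developmental genes and their surroundings. In embryonic stem cells H3K27me3 and H3K4me3 often share a promoter.

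Coordinates are given as the deposited lists have them on mm9, counted from 1. No annotation or genome of that build was used here, so genes at the peaks are not named, no sequence is shown, and the cell type is taken from the labels. The lists hold no read counts, so the depth behind each peak is unknown. Shares carry exact Clopper-Pearson 95% intervals that cover counting error within a list, and medians carry exact binomial intervals. Peaks of 1 library are not replicates of a condition, and no test was made. Width and sharing come from the same hnRNP L lists that chose the members and are given as a description.

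Most members were isolated. In untreated cells 439 of the 588 (74.7%) had no other hnRNP L peak of their list within 100 kb, and 149 lay in 43 chains of 2 to 9 peaks. After Adriamycin 387 of 505 (76.6%) were alone and 118 lay in 36 chains. Members that were alone had the higher scores, with a median of 201 against 75.7 in chains of 2 to 9 in untreated cells, and 263 against 86.2 after Adriamycin. The score is the peak caller's measure of confidence, which this generation of MACS writes as 10 times the negative log10 of the p-value. It was used here to rank and sort peaks, with the same score limits in both lists. Since depth is unknown, scores printed side by side for both conditions describe the lists and do not measure a change.

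The limit of 10 peaks cuts through a few places. Just inside it in untreated cells were chains of 9 on chromosome 13 at 65585696-65758953 and at 66514169-66808213, and just outside it was the chain of 11 on chromosome X at 166423703-166631689. In the Adriamycin list the chromosome 13 places held chains of 10 (65585860-65760618) and 15 (66515658-66845111) and so left the set. A chain on chromosome 17 did the opposite, with 17 untreated peaks at 6378535-6527797 and 9 Adriamycin peaks at 6379235-6541155. Chromosome 13 had 61 members in untreated cells and 30 after Adriamycin, and chromosome 17 had 29 and 44. Without these places the counts were 43 and 30 on chromosome 13 and 29 and 35 on chromosome 17, so the limit made up part of each gap. On the other 18 chromosomes the counts ran from 11 to 43 in untreated cells and from 13 to 37 after Adriamycin. A chain of 8 untreated peaks on chromosome 6 at 47601414-47723463 was also inside the limit although its peaks lay close together.

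The members were narrow. The median width was 870.5 bp in untreated cells (interval 847 to 904, lowest 361, highest 17178) and 882 bp after Adriamycin (856 to 923, lowest 339, highest 18992). In untreated cells 524 of 588 (89.1%) and after Adriamycin 437 of 505 (86.5%) were 500 to 1500 bp wide. Peaks in chains of 10 or more were wider, with medians of 1060 bp (985 to 1114) and 1045 bp (991 to 1133). These chained peaks came from few places, and 169 of 342 untreated and 163 of 327 Adriamycin ones lay on chromosome 4. Width was lowest among the weakest members, at a median of 753 bp (725 to 781) for scores of 50 to 100 in untreated cells. In the 4 higher score ranges the untreated medians lay between 951 and 992 bp, so that beyond the weakest range stronger peaks were not wider ones. After Adriamycin the medians were 758 bp (720 to 803) in the lowest range and 909 to 1047 bp in the higher ones.

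A few members were broad. Over 5000 bp wide were 8 in untreated cells and 13 after Adriamycin, which held 12.9% and 21.9% of all bases under the members. Of these, 6 and 4 belonged to the chromosome 6 chain named above. The broadest untreated member, at 47602154-47619331 (17178 bp, score 1956.21), was matched after Adriamycin by a peak at 47601452-47619377 of 17926 bp (score 1146.78). The untreated members at 47691265-47704625 (13361 bp) and 47704922-47716610 (11689 bp) were met by Adriamycin peaks of 14669 and 18992 bp with other boundaries. H3K27me3 overlapped the last of them with scores of 698.32 and 435.14. A strong H3K4me3 peak (2817.23 in untreated cells and 2679.6 after Adriamycin) overlapped the start of the Adriamycin peak at 47601452-47619377 but, in the untreated list, ended 0.223 kb before the untreated partner, so a shift of a boundary decided that overlap. Away from chromosome 6, the Adriamycin list held a peak of 18933 bp on chromosome 8 at 19923323-19942255 (score 288.37) with no untreated hnRNP L peak within 5 kb. Pol II scored 124.81 there in untreated cells and 109.67 after Adriamycin, and H3K27me3 993.33 and 247.92.

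**Figure D1:**
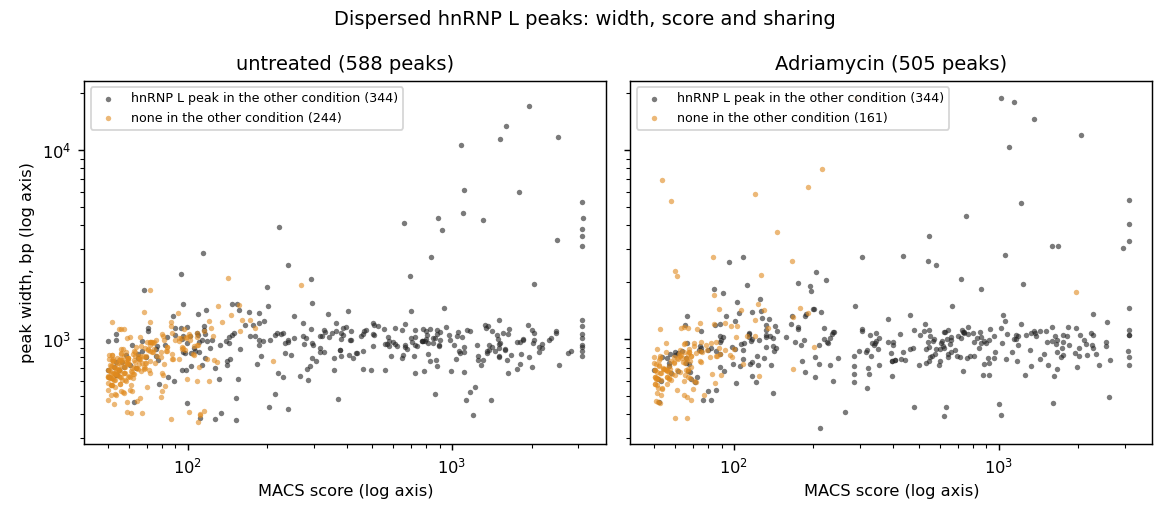
Width of each dispersed hnRNP L peak in bp against its MACS score, both on log axes, for untreated cells (588 peaks) and Adriamycin (505 peaks); dark points have an hnRNP L peak of the other condition, orange points have none. Orange points crowd at scores under 200 and dark points hold a width near 1000 bp over the upper range.

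Scores were spread widely, and dispersed peaks held most of the strong hnRNP L calls. The median score was 118 in untreated cells (interval 108 to 146) and 167 after Adriamycin (130 to 210), against 92.5 (86.5 to 98.2) and 87.8 (83.0 to 96.7) in chains of 10 or more. Scores of at least 500 were reached by 166 of 588 untreated members (28.2%, 24.6 to 32.1%) and 166 of 505 Adriamycin members (32.9%, 28.8 to 37.2%). In the chains they were reached by 22 of 342 (6.43%) and 20 of 327 (6.12%). At the other end, 257 untreated members (43.7%) and 189 Adriamycin members (37.4%) scored under 100.

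Sharing between the conditions followed the score closely. Of all members, 344 of 588 untreated (58.5%, 54.4 to 62.5%) and 344 of 505 Adriamycin (68.1%, 63.9 to 72.2%) were overlapped by at least 1 bp by an hnRNP L peak of the other list. Over all hnRNP L peaks of these chromosomes the shares were 59.5% and 66.1%. At scores of 50 to 100 only 49 of 257 untreated members (19.1%, 14.5 to 24.4%) and 53 of 189 Adriamycin members (28.0%, 21.8 to 35.0%) were shared. At 100 to 200 the shares were 62.2% (51.4 to 72.2%) and 74.1% (63.1 to 83.2%). From a score of 200 upward, 239 of 241 untreated members (99.2%, 97.0 to 99.9%) and 231 of 235 Adriamycin members (98.3%, 95.7 to 99.5%) were shared.

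The weak members are where dispersed and chained peaks parted. At scores of 50 to 100, hnRNP L peaks in chains of 10 or more were shared in 89 of 191 cases in untreated cells (46.6%, 39.4 to 53.9%) and in 92 of 191 after Adriamycin (48.2%, 40.9 to 55.5%), both above the intervals of the dispersed peaks. The chained peaks had more hnRNP L peaks of the other list nearby, with 37 of 191 untreated ones having none within 5 kb against 180 of 257 dispersed ones, and the part of this in the shares was not tested. Over all scores the chained peaks were shared in 61.1% (55.7 to 66.3%) in untreated cells and 63.0% (57.5 to 68.2%) after Adriamycin, with intervals that overlap those of the dispersed peaks. Within the dispersed set, also over all scores, members that were alone were shared in 64.9% (60.3 to 69.4%) in untreated cells and those in chains of 2 to 9 in 39.6% (31.7 to 47.9%), with 76.2% and 41.5% after Adriamycin. The lone members also had the higher scores, as given above.

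**Figure D2:**
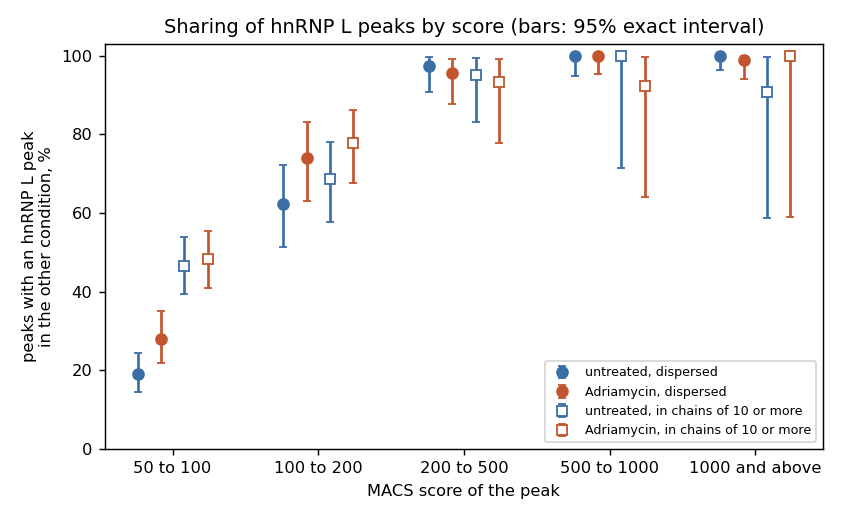
Percent of hnRNP L peaks overlapped by an hnRNP L peak of the other condition, by MACS score range, for dispersed peaks (filled) and peaks in chains of 10 or more (open), with exact 95% intervals. Dispersed peaks rise from 19.1% and 28.0% at scores of 50 to 100 to at least 95.7% from 200 upward.

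Members without a partner were mostly far from any hnRNP L peak of the other list. Of the 244 untreated ones, 207 had none within 5 kb and 151 none within 100 kb, and of the 161 Adriamycin ones 128 and 92. The 6 of them with a score of at least 200 are named here, a choice made after their values were seen. Both untreated ones were moderate. The peak on chromosome 13 at 65727108-65729028 scored 267.46 and lay 3443 bp from the nearest Adriamycin hnRNP L peak, and that on chromosome 6 at 145881012-145881776 scored 210.35. In the Adriamycin list, the peak on chromosome 2 at 98506231-98508000 stood apart with a score of 1958.01, and it had no untreated hnRNP L peak within 5 kb and no peak of the other 4 targets at it in either condition. The remaining 3 were the chromosome 8 peak described above, a peak of score 200.91 on chromosome X at 73843733-73844641, and a peak of 7942 bp on chromosome 4 at 3006470-3014411 (score 215.38). At the chromosome 4 place Pol II scored 3201.82 in untreated cells and 3100 after Adriamycin, and H3K27me3 591.16 and 966.26. Whether sequence present in many copies lies at these places, or at the other strong members, was not checked.

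Members that paired singly between the conditions matched closely in place, width and rank. There were 316 pairs in which a single dispersed peak of each list overlapped. They were chosen by their overlap, so closeness in place is in part set by that choice. Peaks split or merged between the lists are left out. Their centres lay a median of 74 bp apart, and in 199 pairs at most 100 bp. The overlap covered a median of 99.8% of the shorter peak. Width differed by a median of -13 bp (Adriamycin minus untreated, interval -41 to 18), with 167 pairs narrower and 148 wider after Adriamycin. Scores kept their order, with a Spearman correlation of 0.94 over the 316 pairs, given as a description since the pairs come from 1 library each. In 207 pairs both scores were at least 200.

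Of the strongest members named by the rule, most held no peak of another target. A score of at least 3100, a value that several peaks share near the top of the scale, was reached by 13 untreated and 9 Adriamycin members, and each had a partner. On chromosome 1 at 24618143-24623455 the untreated peak of 5313 bp and its Adriamycin partner of 5459 bp both scored 3100, with the nearest H3K27me3 18.1 kb away in untreated cells. On chromosome 12 at 94814918-94815979 (1062 bp, scores 3100 and 3071.83) the nearest untreated peak of any of the 4 targets was an H3K4me3 peak 317 kb away, and after Adriamycin an H3K4me3 peak 12.9 kb away. On chromosome 14 at 86598632-86599359 (728 bp in the Adriamycin list, scores of 3100 in both) the nearest Adriamycin target peak was H3K27me3 at 194 kb. A pair of strong places did carry targets. On chromosome 17 at 13743045-13746543 (3499 bp, scores of 3100 in both) Pol II scored 948.45 in untreated cells and 222.73 after Adriamycin, and H3K27me3 210.57 and 71.84. On chromosome 13 at 74665478-74668594 (3117 bp, scores 3100 and 2948.88) Pol II scored 432.63 and 293.81, and H3K27me3 was called only in untreated cells (101.54).

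Most members held no peak of another target. None of the 4 overlapped 419 of 588 untreated members (71.3%, 67.4 to 74.9%) and 379 of 505 Adriamycin members (75.0%, 71.0 to 78.8%), against 73.3% and 75.2% of all hnRNP L peaks of these chromosomes. Members without any target had median scores of 148 and 230, and 256 and 264 of them had a partner. No target peak lay within 10 kb of 239 untreated members (40.6%) and 229 Adriamycin members (45.3%), against 39.9% and 41.3% of all hnRNP L peaks, or within 100 kb of 61 (10.4%) and 55 (10.9%), against 6.99% and 8.53%.

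Among the targets, H3K27me3 and Pol II were the frequent ones. H3K27me3 overlapped 110 untreated members (18.7%, 15.6 to 22.1%) and 83 Adriamycin members (16.4%, 13.3 to 20.0%), and the shares over all hnRNP L peaks were 14.4% and 12.7%. After Adriamycin it overlapped 46 of 387 lone members (11.9%, 8.84 to 15.5%) and 37 of 118 in chains of 2 to 9 (31.4%, 23.1 to 40.5%). In untreated cells these shares were 19.1% and 17.4%. The share of lone members was thus lower after Adriamycin and that of the short chains higher, in sets whose members differ between the lists. Pol II overlapped 82 (13.9%, 11.2 to 17.0%) and 67 (13.3%, 10.4 to 16.5%), against 12.5% and 9.86%. H3K79me2 overlapped 31 (5.27%, 3.61 to 7.40%) and 20 (3.96%, 2.44 to 6.05%), against 7.31% and 7.69%. H3K4me3 overlapped 15 (2.55%, 1.43 to 4.17%) and 11 (2.18%, 1.09 to 3.86%), against 4.52% and 4.21%.

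Measured in bases, both frequent targets covered more of the members than of the chromosomes. Pol II peaks covered 7.79% of member bases in untreated cells and 2.93% of the chromosomes, a ratio of 2.66, and after Adriamycin 9.17% and 2.07%, a ratio of 4.42. For H3K27me3 the values were 11.8% and 3.83% (ratio 3.09) in untreated cells and 12.0% and 2.86% (ratio 4.20) after Adriamycin. H3K4me3 covered less of the members than of the chromosomes, with ratios of 0.558 and 0.391, and so did H3K79me2, with 0.708 and 0.466. In chains of 10 or more, which lie at few places, the order was another one. There H3K79me2 had ratios of 1.24 and 1.57, H3K4me3 1.30 in both conditions, Pol II 1.20 and 0.585, and H3K27me3 0.857 and 1.04. The rise of the Pol II ratio in the dispersed set went with a fall of Pol II over the chromosomes, from 77.4 to 54.7 Mb. Within 0.5 kb of the centres Pol II covered nearly the same share in both conditions, 7.86% and 7.93%. Of the members over 5000 bp wide, Pol II overlapped none of 8 in untreated cells and 4 of 13 after Adriamycin, and without them the Pol II ratios were 3.05 and 4.55. H3K27me3 overlapped 5 of the 8 and 8 of the 13, and without these wide members its ratios were 3.22 and 3.70. Over the chromosomes H3K27me3 also fell, from 101 to 75.3 Mb.

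**Figure D3:**
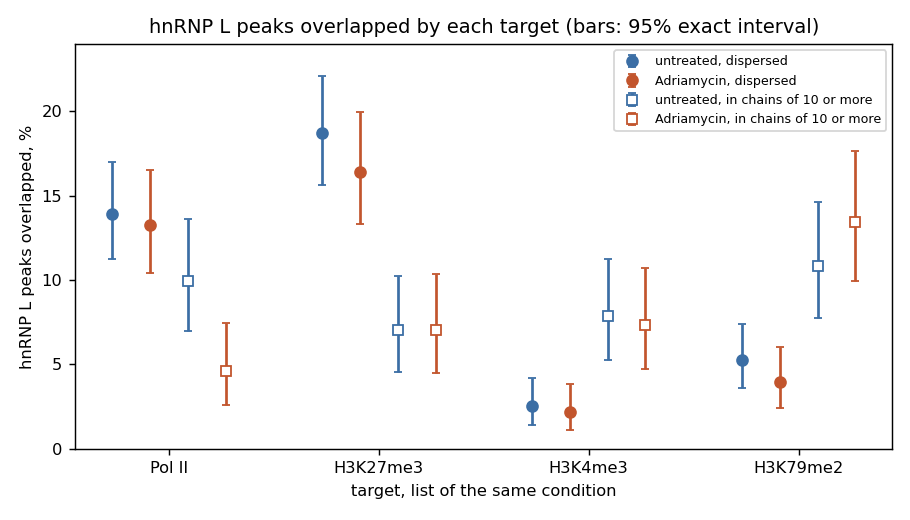
Percent of hnRNP L peaks overlapped by at least 1 bp by each target of the same condition, for dispersed peaks (filled) and peaks in chains of 10 or more (open), with exact 95% intervals. Dispersed peaks reach 18.7% and 16.4% for H3K27me3 and 2.55% and 2.18% for H3K4me3.

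Pol II and H3K27me3 tended to lie at the same members. In untreated cells H3K27me3 was found at 40 of the 82 members with Pol II (48.8%, 37.6 to 60.1%) and at 70 of the 506 without it (13.8%, 10.9 to 17.2%). After Adriamycin it was found at 38 of 67 (56.7%, 44.0 to 68.8%) and 45 of 438 (10.3%, 7.59 to 13.5%). Members with both had median scores of 97.8 and 94.1, below the 118 and 167 of all members, and median widths of 985 and 997 bp.

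Seen from the side of Pol II, the peaks at dispersed hnRNP L differed in their marks from the Pol II list as a whole. The untreated list had 97 Pol II peaks at members, of which 44 overlapped H3K27me3 (45.4%, 35.2 to 55.8%), against 10.2% of all Pol II peaks. Only 8 overlapped H3K4me3 (8.25%, 3.63 to 15.6%) and 19 H3K79me2 (19.6%, 12.2 to 28.9%), against 35.1% and 45.6%. After Adriamycin 38 of 74 overlapped H3K27me3 (51.4%, 39.4 to 63.1%), 2 H3K4me3 (2.70%, 0.329 to 9.42%) and 10 H3K79me2 (13.5%, 6.68 to 23.5%), against 11.2%, 37.2% and 41.6%. Pol II peaks with none of the 3 marks made up 35.1% and 39.2% at members and 33.0% and 33.5% of the whole lists. At hnRNP L peaks in chains of 10 or more, 4 of 40 untreated Pol II peaks and 2 of 15 Adriamycin ones overlapped H3K27me3.

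**Figure D4:**
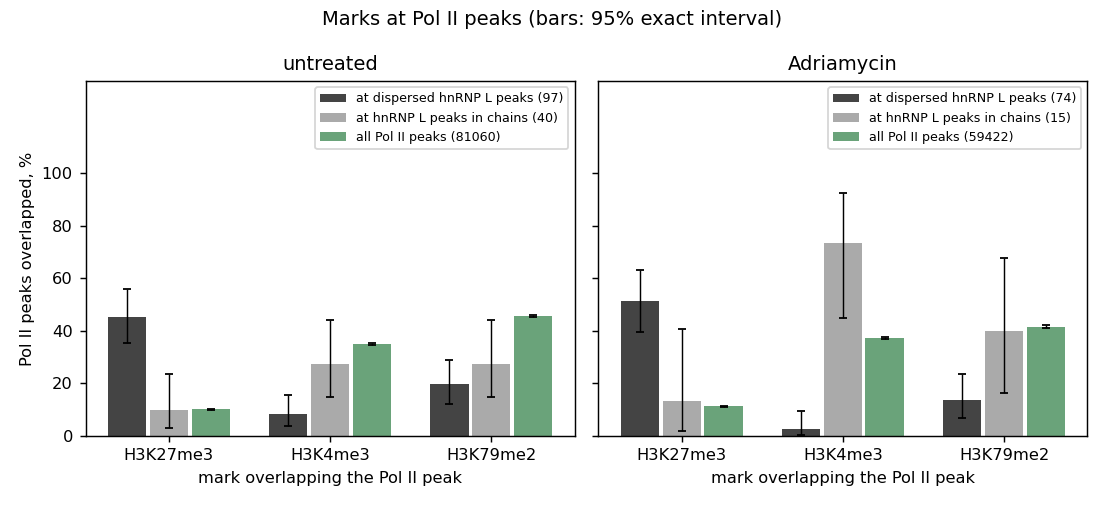
Percent of Pol II peaks overlapped by H3K27me3, H3K4me3 and H3K79me2 of the same condition, for Pol II peaks at dispersed hnRNP L peaks, at hnRNP L peaks in chains of 10 or more, and in the whole list; bars start at 0 and error bars are exact 95% intervals. At dispersed peaks H3K27me3 reaches 45.4% and 51.4%, against 10.2% and 11.2% of all Pol II peaks.

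Where a member met several peaks of a target, only the strongest was taken, which can raise its score against the list's median. Most of the Pol II and H3K27me3 peaks taken at members scored above the median of their lists. Pol II peaks there had a median width of 601.5 bp in untreated cells and 666 bp after Adriamycin, near the list medians of 694 and 691 bp, and median scores of 146 and 153 against 121 and 101, with 48 of 82 and 45 of 67 above their list's median. Their centres lay a median of 152 bp from the centre of the hnRNP L peak in untreated cells and 154 bp after Adriamycin, and within 500 bp in 72 of 82 and 53 of 67 cases. H3K27me3 peaks at members had median widths of 828.5 and 688 bp (lists 715 and 603 bp) and median scores of 202 and 148 (lists 97.1 and 90.8), with 74 of 110 and 58 of 83 above their list's median. Their centres were within 500 bp in 75 of 110 and 52 of 83 cases.

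Targets were found mainly at the weaker members. Pol II overlapped 43 of 257 untreated members with scores of 50 to 100 (16.7%, 12.4 to 21.9%), 19 of 90 at 100 to 200 (21.1%, 13.2 to 31.0%) and 10 of 166 at 500 and above (6.02%, 2.93 to 10.8%). After Adriamycin these shares were 17.5% (12.3 to 23.6%), 22.2% (13.7 to 32.8%) and 5.42% (2.51 to 10.04%). H3K27me3 went the same way, with 21.8% (16.9 to 27.3%), 23.3% (15.1 to 33.4%) and 12.7% (8.00 to 18.7%) in untreated cells and 18.5% (13.3 to 24.8%), 32.1% (22.2 to 43.4%) and 9.04% (5.15 to 14.5%) after Adriamycin. H3K79me2 fell from 7.39% (4.51 to 11.3%) at scores of 50 to 100 to 2.41% (0.660 to 6.05%) at 500 and above in untreated cells, and from 7.41% (4.11 to 12.1%) to 1.81% (0.374 to 5.19%) after Adriamycin, with overlapping intervals in both.

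Shared and unshared members were then compared for the marks they held. In untreated cells Pol II overlapped 46 of 344 shared members (13.4%, 9.96 to 17.4%) and 36 of 244 unshared ones (14.8%, 10.6 to 19.8%), and H3K27me3 17.4% (13.6 to 21.9%) and 20.5% (15.6 to 26.1%). After Adriamycin Pol II overlapped 10.8% (7.69 to 14.5%) and 18.6% (12.9 to 25.5%), and H3K27me3 14.5% (11.0 to 18.7%) and 20.5% (14.5 to 27.6%). The intervals of shared and unshared members overlapped for both targets in both conditions. At scores of 50 to 100 the higher share was on the shared side for Pol II, with 13 of 49 against 30 of 208 in untreated cells (26.5%, 14.9 to 41.1%, against 14.4%, 9.95 to 19.9%) and 20.8% (10.8 to 34.1%) against 16.2% (10.4 to 23.5%) after Adriamycin. H3K27me3 was found there at 28.6% (16.6 to 43.3%) against 20.2% (14.96 to 26.3%) in untreated cells and at 18.9% (9.44 to 32.0%) against 18.4% (12.3 to 25.9%) after Adriamycin, and all of these intervals overlapped in pairs. At scores of 100 to 200 Pol II overlapped 23.2% of shared and 17.6% of unshared untreated members. After Adriamycin the order in that range was the reverse, with 12 of 60 (20.0%) against 6 of 21 (28.6%).

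The 4 targets had different shapes around the members. Pol II was raised mainly at the peak itself. Within 0.5 kb of the centre it covered 7.86% of bases in untreated cells, as given above, from 0.5 to 1 kb 2.61%, and from 1 to 50 kb between 2.38% and 3.48%, close to its 2.93% of the chromosomes. After Adriamycin the values were 7.93%, 3.34% and 2.50 to 2.70%, all above the 2.07% of the chromosomes. H3K27me3 fell off slowly. In untreated cells it covered 11.8% within 0.5 kb, 7.01% from 0.5 to 1 kb, 5.49% from 2 to 5 kb and 4.44% from 20 to 50 kb, against 3.83% of the chromosomes. After Adriamycin these were 9.22%, 5.71%, 4.65% and 3.50%, against 2.86%.

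H3K4me3 and H3K79me2 were low near the centre and rose with distance. H3K4me3 covered 1.396% of bases within 0.5 kb in untreated cells, 2.06% from 2 to 5 kb and 2.77% from 20 to 50 kb, against 2.38% of the chromosomes, and after Adriamycin 0.605%, 1.50% and 2.69%, against 2.18%. H3K79me2 covered 4.10% within 0.5 kb, 3.46% from 0.5 to 1 kb, 4.16% from 10 to 20 kb and 5.57% from 20 to 50 kb in untreated cells, against 5.26% of the chromosomes. After Adriamycin it covered 2.66%, 2.20%, 4.06% and 4.94%, against 4.93%. Around peaks in chains of 10 or more H3K27me3 stayed below the chromosome level out to 50 kb, at 1.35% from 20 to 50 kb in untreated cells and 0.784% after Adriamycin. Windows around chained peaks overlap each other, so those profiles rest on few places.

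**Figure D5:**
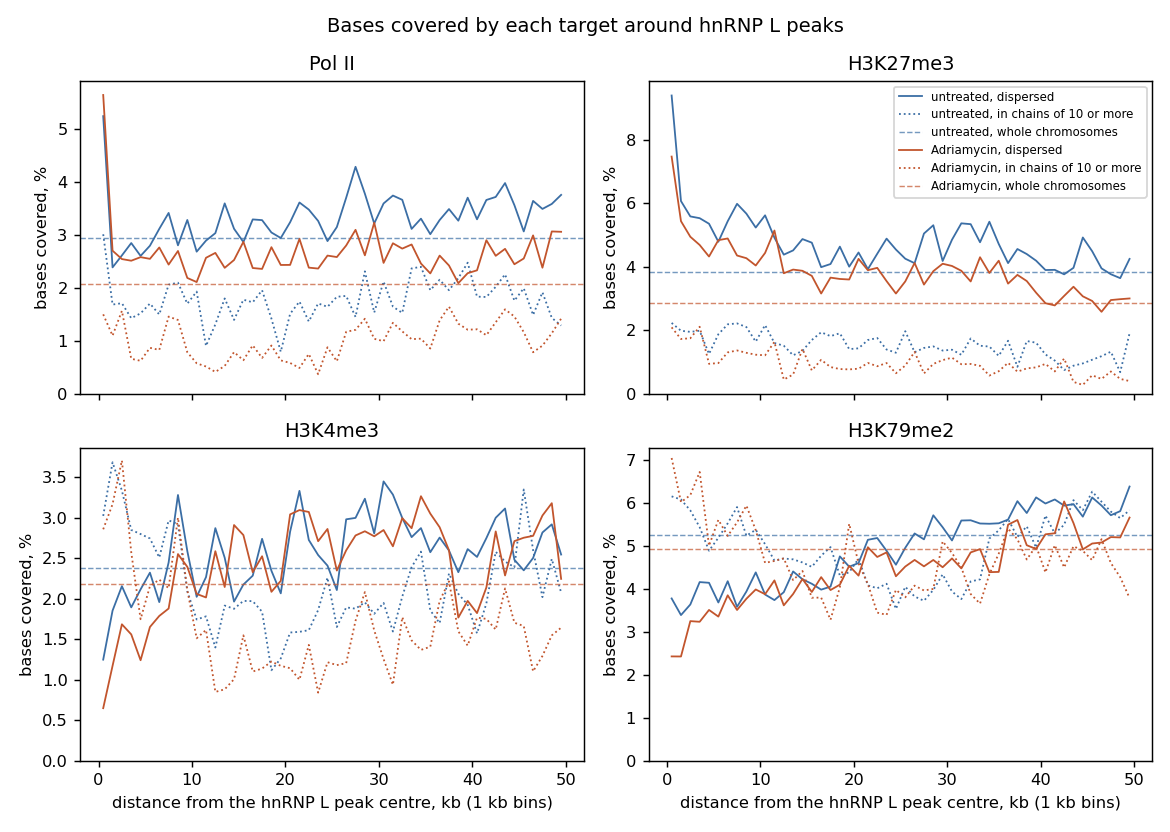
Percent of bases covered by each target by distance from the centre of the hnRNP L peak (kb, 1 kb bins, both sides joined), for dispersed peaks (solid) and peaks in chains of 10 or more (dotted), with the percent of the chromosomes covered as dashed lines. Around dispersed peaks Pol II is highest in the first bin and lower beyond it, H3K27me3 slopes down with distance, and H3K4me3 and H3K79me2 dip near the centre.

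By distance to the nearest target peak the targets stood in another order. The nearest H3K27me3 peak was a median of 15.9 kb from an untreated member (interval 12.9 to 21.9 kb) and 22.2 kb from an Adriamycin member (16.8 to 28.6 kb). Pol II was nearest at 29.5 kb (22.0 to 40.6 kb) and 42.8 kb (29.1 to 60.5 kb), and H3K4me3 at 30.9 kb (27.9 to 34.6 kb) and 29.7 kb (24.3 to 33.0 kb). H3K79me2 was the farthest, at 133 kb (100.5 to 157 kb) and 142 kb (113 to 180 kb). Peaks in chains of 10 or more had H3K79me2 at medians of 31.1 and 25.0 kb and H3K27me3 at 37.2 and 42.1 kb. They had Pol II at 14.18 and 28.25 kb and H3K4me3 at 16.21 and 17.68 kb. By these medians only H3K27me3 lay nearer to dispersed peaks than to chained ones, in both conditions. The lists differ in length, and a longer list has a nearer peak by its number alone.

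The same members were then looked up in both lists of each target. Of the 82 untreated members with Pol II, 55 also had it after Adriamycin (67.1%, 55.8 to 77.1%), and 9 of the 506 without it had it then (1.78%, 0.816 to 3.35%). In the whole untreated Pol II list 52.0% of peaks met a Pol II peak after Adriamycin. H3K27me3 was found again at 73 of 110 (66.4%, 56.7 to 75.1%) and appeared at 8 of 478 (1.67%, 0.725 to 3.27%), with 58.8% for the whole list. H3K79me2 was found again at 22 of 31 (71.0%, 52.0 to 85.8%) and H3K4me3 at 15 of 15 (78.2 to 100%), with 81.0% and 85.5% for the whole lists. The share for members asks for any peak within the hnRNP L peak and the share for a list for overlap of the target peaks themselves, so the pairs of values are not the same measure.

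From the Adriamycin members the view was similar. Pol II was also present in untreated cells at 59 of 67 (88.1%, 77.8 to 94.7%) and H3K27me3 at 73 of 83 (88.0%, 78.96 to 94.07%), against 73.9% and 73.0% for the whole Adriamycin lists. H3K79me2 was present at 15 of 20 (75.0%, 50.9 to 91.3%) and H3K4me3 at 10 of 11 (90.9%, 58.7 to 99.8%), against 82.0% and 84.2%. These shares were also set beside the state of hnRNP L. Where an untreated member had no Adriamycin partner, Pol II was found again at 21 of 36 (58.3%, 40.8 to 74.5%), and where it had one at 34 of 46 (73.9%, 58.9 to 85.7%), with overlapping intervals. For H3K27me3 these were 34 of 50 (68.0%, 53.3 to 80.5%) and 39 of 60 (65.0%, 51.6 to 76.9%).

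Of the 40 untreated members with Pol II and H3K27me3 together, 19 had both after Adriamycin, 12 had Pol II alone, 6 had H3K27me3 alone and 3 had neither. Of the 38 Adriamycin members with both, 31 had both in untreated cells, 2 had Pol II alone and 5 had H3K27me3 alone.

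Single places show the range of these states. The lists start at a score of 50 and some calls below lie near that floor, so a call in a single condition can be a crossing of it. On chromosome 18 at 4194892-4199563 (4672 bp, score 1098.41, Adriamycin partner 756.23), Pol II was called in untreated cells only (96.54), while H3K27me3 scored 129.64 and 59.6. On chromosome 10 at 57699138-57702910 (3773 bp, scores 914.33 and 547.34), H3K27me3 scored 3100 and 386.7, and Pol II was called after Adriamycin only (54.03). On chromosome 6 at 29697346-29699288 (1943 bp, scores 2035.3 and 1231.48), Pol II scored 1235.1 and 357.6, and H3K27me3 (62.51) and H3K79me2 (93.15) were called in untreated cells only. On chromosome 13 at 60777790-60778342 (553 bp, scores 1216.76 and 893.81), H3K79me2 scored 196.98 and 655.26.

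Pol II, H3K4me3 and H3K79me2 together were found at 2 of 588 untreated members and 1 of 505 Adriamycin members, against 1.08% and 0.721% of all hnRNP L peaks of these chromosomes. The place they share, on chromosome 19 at 6248356-6249505, had weak hnRNP L (scores 99.54 and 57.35) with Pol II at 1121.26 and 260.43, H3K4me3 at 372.67 and 641.69, and H3K79me2 at 349.89 and 152.09. The other untreated one, on chromosome 13 at 66797429-66798554 (score 96.87), lay in a chain of 9 and had no Adriamycin hnRNP L peak within 5 kb, although all 3 transcription targets were called there in both conditions. The strongest untreated members with H3K4me3, on chromosome 6 at 47619373-47625395 (score 1793.66) and 47686899-47691184 (score 1304.69), held H3K4me3 below the list's median score of 386 (111.05 and 136.63 in untreated cells) and no Pol II or H3K79me2 in either condition. H3K27me3 was called at the first in untreated cells only (61.66) and at the second after Adriamycin only (66.21).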

How the data were processed

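ChIP-seq libraries of 5 targets in 2 conditions were used as deposited peak lists, 1 per library. Per the submitters' processing notes, CASAVA 1.8.2 and MACS 1.4.1 were used and the build was mm9. For an input library, duplicate handling and depth, nothing is stated in the sources used here. The deposited score of each peak is the authors' value. Chains and members were computed per condition on chromosomes 1 to 19 and X, and overlap meant at least 1 bp within a condition or across conditions. The length of a chromosome was set to the last base under any peak of any list. No test was made. Chain, overlap, distance and coverage steps were tested on simulated data. Named regions were, per condition, the 5 strongest members, the 3 strongest without hnRNP L within 5 kb in the other condition, the 3 widest, and the 3 strongest for each target, for Pol II with H3K4me3 and H3K79me2, and for a Pol II or H3K27me3 state that differed, besides the chains next to the limit of 10. The text prints part of them. The members, score ranges and lists were chosen with earlier results of these data known. The tools were SciPy 1.17.1, pandas 2.3.3 and numpy 2.4.6 in Python 3.11.15, with matplotlib 3.10.9 for plots.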

Additional observations from a re-analysis of the deposited data

Results flagged for a closer look

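hnRNP L was also called on sequence outside the chromosomes used here. The untreated list held 32 peaks on chromosome Y and 158 on unplaced contigs, and the Adriamycin list 37 and 153. The lists of the other targets held 2 to 25 peaks on chromosome Y and 0 on contigs, and the sources used here do not say whether they were made with those contigs.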

How the results depend on the processing

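Of 102 recomputed values, 88 stayed within the interval of the value given above, or within 1.5 times for counts, and 14 moved. None of the 14 values moved with gaps of 50 or 200 kb, with chains of at least 5 peaks, or with chains built on both conditions together (left out where either list had 10 or more peaks, chosen after seeing the data), and none of the 10 shares moved with an overlap of 50% of the shorter peak. The peak threshold moved most. With hnRNP L peaks of a score of at least 100, chained anew, the untreated members numbered 371. Members with such scores had median widths of 974 bp in untreated cells and 981 bp after Adriamycin, were shared in 89.1% and 92.1%, and overlapped H3K79me2 in 1.90% after Adriamycin. With target peaks of at least 100, Pol II overlapped 9.86% and 8.91% of members and H3K27me3 12.6% and 10.9%. Lone members alone (chosen after seeing the data) were shared in 64.9% and 76.2% and overlapped H3K27me3 in 11.9% after Adriamycin. With equal numbers of top-scoring peaks, 66.1% of untreated members were shared and 66.5% of Adriamycin members. No paired analysis was possible because each group has 1 library, so the groups share a single replicate number. Unknown depth limits every absence of a peak to the sensitivity of its list.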
